A study of Mus musculus with 12 samples.

Results

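The rows Hemgn, Tspan33, Tmod1, Dcaf12 and Ube2r2 were examined in RNA sequencing counts from mouse serum, normal animals against animals with colorectal cancer. They are 5 of 53546 gene rows, and all 5 passed the low-count filter that left 9565 rows. They were selected on their lower counts in colorectal cancer in these same libraries, that is, chosen by the values compared here, so their group difference is given as a description without a test. The labels give 6 normal and 6 colorectal cancer serum samples as biological replicates. The files of colorectal cancer replicates 5 and 6 were identical in every row and were used once, as replicate 6, which left 6 normal and 5 colorectal cancer libraries. The labels name tissue and disease, and no strain, age, tumour model, treatment or animal. P-values measure only the spread between these samples.

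The 5 genes were grouped under the label of late red cell genes, and they have different functions. Developing red cells silence most of their genes, rebuild the membrane skeleton and use the ubiquitin system to clear proteins before and after the nucleus is lost. Hemgn encodes hemogen, a nuclear protein of blood-forming cells that is a known target of the red cell transcription factor GATA1. Tspan33 encodes a tetraspanin of the TspanC8 family, which guides the membrane protease ADAM10. Tmod1 encodes tropomodulin 1, which caps the pointed ends of the short actin filaments of the red cell skeleton. Dcaf12 encodes a substrate receptor of cullin 4 ubiquitin ligases, and Ube2r2 encodes a ubiquitin-conjugating enzyme that works with cullin-RING ligases. The latter pair are expressed in many cell types.

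The label of late red cell genes was not borne out by the rows of the defining red cell markers. Of 11 such markers, 4 were at 0 in every library, Hbb-bs, Hbb-bt and Alas2 among them, and 7, these included, stayed under 10 counts in every library. Hba-a1, an alpha-globin gene, had 22 to 38 counts in normal and 50 to 69 in colorectal cancer libraries, or 4.87 ± 1.59 and 4.78 ± 1.27 CPM (counts per 1000000 of the scaled library size, SD, n = 6 and 5). Sptb, which encodes beta-spectrin, had 188 counts, all in 1 library. Rows of genes that nearly every cell uses, such as Actb and Fth1, were at 0 as well, so a row at 0 does not show that a transcript was missing, and whether each row measures the gene it is named for was not tested. The 5 rows are therefore called by their names. The labels name serum, and whether the RNA came from cells or from outside them was not tested. In bulk RNA, fewer cells of a type and less RNA per cell cannot be told apart either.

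Totals ran from 2889205 to 20774889 counts, and the row named Olfr648 made up most of 6 of them (2 normal, 4 colorectal cancer). Without that row totals lay between 2885958 and 4089488 counts in normal and between 3727908 and 7033966 in colorectal cancer libraries. The number of rows above 0 was 10409 to 12384 in normal and 12426 to 15179 in colorectal cancer libraries. Levels are given as CPM over library totals adjusted by TMM factors, which aim to level the typical row between libraries. The scaled library sizes were 4987499 to 8086702 in normal and 7964083 to 16700913 in colorectal cancer libraries.

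Of the 5 genes, 4 lie in the first 60 Mb of chromosome 4 in 2 places (mm10, GENCODE M21, 1-based). Ube2r2 (4, 41135743 to 41193380, plus strand) and Dcaf12 (4, 41291300 to 41314889, minus strand) point towards each other with 97.9 kb and 1 protein-coding gene, Ubap2, between them. Tmod1 (4, 46038935 to 46116032, plus strand) and Hemgn (4, 46393989 to 46413506, minus strand) lie 278.0 kb apart with 4 protein-coding genes between them. Tspan33 is on chromosome 6 (6, 29694222 to 29718559, plus strand).

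All 5 genes had 1 start region each in RefSeq's table for GRCm38.p6, the assembly of mm10. The 250 bases before the RefSeq start are shown for Tspan33 and Dcaf12, and for Hemgn the 197 of them outside annotated exons. They are shown because the scaled CPM of the 5 genes varied together within groups, which their unscaled counts did less. For Hemgn that start lies inside the gene span given above, at a shorter transcript, so its window is within the span. They read 5′ to 3′ on the strand of the gene, and capitals mark CCAAT or its reverse complement ATTGG. The windows of Tmod1 and Ube2r2 lie wholly in exons of GENCODE M21 and are not shown.
Tspan33, chr6:29693964-29694213: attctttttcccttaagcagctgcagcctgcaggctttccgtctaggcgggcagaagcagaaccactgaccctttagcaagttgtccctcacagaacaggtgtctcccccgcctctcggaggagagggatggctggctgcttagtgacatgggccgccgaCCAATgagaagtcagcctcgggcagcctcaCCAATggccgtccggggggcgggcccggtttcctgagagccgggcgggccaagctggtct
Dcaf12, chr4:41314902-41315151: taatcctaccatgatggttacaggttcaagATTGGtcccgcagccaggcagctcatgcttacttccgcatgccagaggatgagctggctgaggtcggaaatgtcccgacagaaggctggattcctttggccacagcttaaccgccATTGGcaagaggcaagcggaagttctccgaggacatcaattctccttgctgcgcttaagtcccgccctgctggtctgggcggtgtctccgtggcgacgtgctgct
Hemgn, chr4:46404237-46404433: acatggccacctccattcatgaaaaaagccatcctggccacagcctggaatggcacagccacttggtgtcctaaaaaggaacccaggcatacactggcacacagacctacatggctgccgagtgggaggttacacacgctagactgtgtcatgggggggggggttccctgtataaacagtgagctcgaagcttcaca

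The 250-base windows were searched on both strands for the GATA words (the word AGATAA, the word AGATAG, the word TGATAA and the word TGATAG), for the CACCC-box words CCACACCC, CCACGCCC, CCCCACCC and CCCCGCCC, and for CCAAT, which was added after the sequences were seen. None of these words overlaps another type of match in the 5 windows. A GATA word was present in Hemgn alone of the 5, against 26.5% of all 32851 start regions in the table. It lies in 26 bases (chr4:46404184-46404209, minus strand) within an annotated exon, and capitals mark it.
Hemgn, GATA match: cacctgtgcagtgTGATAAagaaagt
Of the CACCC-box words, only the last one listed above occurred, in Tmod1 at 2 sites and in Ube2r2 at 1 site. That word does not contain the letters of the box name, so these sites are matches to the list only. Any of the CACCC-box words was present in 27.4% of all start regions, and the share with the last word alone is not given here. CCAAT occurred at 2 sites each in Tspan33 and Dcaf12, against 33.8%. No word was shared by all 5 windows, and a match is a description of letters only.

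Hemgn was the lowest of the 5 in CPM. The normal libraries had a lowest value of 34.9, a median of 54.8 and a highest of 60.5 CPM, and the colorectal cancer libraries 21.35, 7.07, 20.2, 14.7 and 12.9 CPM for replicates 1, 2, 3, 4 and 6. Every colorectal cancer library lay below every normal one. The means were 50.8 ± 10.6 and 15.3 ± 5.80 CPM (SD, n = 6 and 5), and the fitted log2 fold change was -1.74 (SE 0.26), or 3.34-fold lower.

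Tspan33 had a lowest value of 341, a median of 458 and a highest of 612 CPM in normal libraries. In colorectal cancer it had 209, 85.1, 199.5, 167 and 139 CPM for the same replicates in order. The groups again did not overlap, and the log2 fold change was -1.54 (SE 0.23), or 2.92-fold lower.

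Tmod1 had a lowest value of 137, a median of 172.5 and a highest of 282 CPM in normal libraries. The colorectal cancer libraries had 63.4, 21.1, 88.0, 65.0 and 54.6 CPM, all below the normal ones. The log2 fold change was -1.68 (SE 0.32), or 3.22-fold lower, with the widest error of the 5. The end of Tmod1 overlaps Tstd2, a gene of the opposite strand. How the counting treated strand is unknown here, and reads of the overlap cannot be assigned to either gene. Tstd2 had 84.9 ± 9.43 CPM in normal and 86.1 ± 8.06 in colorectal cancer libraries.

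Dcaf12 was the highest of the 5, the 24th most abundant of the 9565 tested rows. Normal libraries had a lowest value of 2564, a median of 4279 and a highest of 4898 CPM, and colorectal cancer libraries 1540.5, 783, 2371, 1296 and 1015 CPM. The groups did not overlap, but colorectal cancer replicate 3 (2371 CPM) and normal replicate 5 (2564 CPM) were close. The log2 fold change was -1.52 (SE 0.27), or 2.88-fold lower.

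Ube2r2 showed the same order of libraries in colorectal cancer as Dcaf12. Its normal libraries had a lowest value of 1738, a median of 2772 and a highest of 3122 CPM, and its colorectal cancer libraries 1091, 564, 1532, 813 and 714 CPM. The groups did not overlap, and the log2 fold change was -1.48 (SE 0.25), or 2.78-fold lower.

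**Figure D1:**
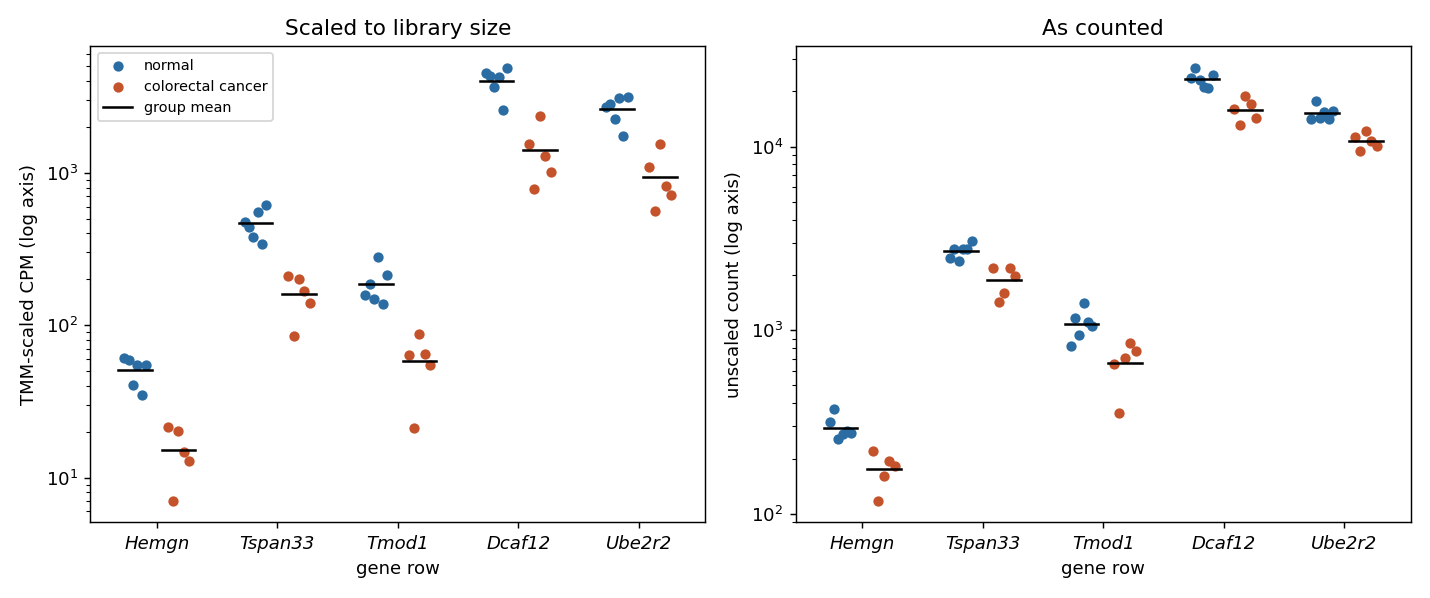
Values of the 5 genes in each library, normal in blue and colorectal cancer in orange, as TMM-scaled CPM (left) and as deposited counts (right), both on log axes; points are libraries and bars the group means. On the left all colorectal cancer points lie below all normal points, and on the right the gap is narrower and the groups of Tmod1 overlap.

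By the quasi-likelihood test of edgeR, with adjustment by Benjamini and Hochberg over all tested rows, 1.45% of rows were lower in colorectal cancer, 0.565% higher and 2.02% either, and 2.1% had no overlap between groups with colorectal cancer lower. Among the 1526 tested rows at or above the mean CPM of Hemgn, the lowest of the 5, 6.49% were lower and 1.57% higher. All 5 genes are among the lower rows because they were picked there, and nothing is read from that count. Their fitted falls ranked between the 37th (Hemgn) and the 88th (Ube2r2) largest of all tested rows. Per kb of exon, Dcaf12 stood at 1171 ± 241 CPM in normal libraries, Ube2r2 at 627 ± 128, Tspan33 at 89.8 ± 19.8, Tmod1 at 47.5 ± 13.6 and Hemgn at 20.2 ± 4.23 (SD, n = 6). In colorectal cancer the order by level per kb was the same: 407 ± 178 for Dcaf12, 225 ± 91.1 for Ube2r2, 30.8 ± 9.66 for Tspan33, 14.8 ± 6.15 for Tmod1 and 6.08 ± 2.31 for Hemgn (n = 5). Neighbours in that order overlapped in their library values in both groups, apart from Ube2r2 and Tspan33 in both groups and Tmod1 and Hemgn in normal serum. Taken library by library, the 5 genes kept this order in every library of both groups.

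The counts before scaling moved less than the CPM. Dcaf12 had 20735 to 26920 counts in normal and 13079 to 18880 in colorectal cancer libraries, a ratio of means of 1.47. Ube2r2 had 14055 to 17785 and 9426 to 12204 counts (ratio 1.42), Tspan33 2384 to 3059 and 1422 to 2188 (ratio 1.45), and Hemgn 254 to 372 and 118 to 221 (ratio 1.68). In these 4 genes the unscaled counts did not overlap between groups either. Tmod1 overlapped, with 824 to 1405 against 352 to 852 counts (ratio 1.63). Over all tested rows, 0.335% had unscaled counts lower in every colorectal cancer library than in every normal one, and 23.0% were higher in this way. The genes named here were chosen for lower counts in these same libraries, so nothing is read from setting them beside these shares.

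Another scaling changed the size but not the direction. With the row Olfr648 left out and libraries scaled by totals alone, the log2 fold changes lay between -1.35 (Hemgn) and -1.09 (Ube2r2), and the median of all rows moved from 0.04 to 0.42. Relative to that median the falls were between -1.77 and -1.51, against -1.78 and -1.52 with TMM scaling. With that scaling 93.0% of the calls over all rows were higher, against 28.0%. The groups of all 5 genes, which were chosen on this difference, remained apart under it. Dcaf12 did so narrowly (5070 CPM in the lowest normal and 5064 in the highest colorectal cancer library). The share of all tested rows apart under this scaling is not given here, so nothing is read from that count.

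The ratios between the 5 genes, which need no library scaling, overlapped between groups in all 10 pairs. The log2 ratio of Dcaf12 to Ube2r2 counts was 0.62 ± 0.10 in normal and 0.56 ± 0.09 in colorectal cancer libraries (SD, n = 6 and 5). This was the tightest ratio in either group. The widest shift was that of Hemgn to Ube2r2, -5.69 ± 0.15 in normal and -5.96 ± 0.30 in colorectal cancer, a difference of -0.27 on the log2 scale. Tspan33 to Dcaf12 stood at -3.11 ± 0.18 and -3.09 ± 0.30. The ratios of Tmod1 to the other genes had SDs of 0.22 to 0.44 on the log2 scale.

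Within each group the 5 genes were lowest in the same libraries, while their highest library differed between genes. In normal serum replicate 5 was the lowest library for all 5 genes and replicate 3 the second lowest. The highest normal library was replicate 1 for Hemgn, replicate 4 for Tmod1 and replicate 6 for Tspan33, Dcaf12 and Ube2r2. In colorectal cancer replicate 2 was the lowest and replicate 6 the second lowest for all 5. From low to high the replicates ran 2, 6, 4, 1, 3 for Dcaf12 and Ube2r2, 2, 6, 4, 3, 1 for Hemgn and Tspan33, and 2, 6, 1, 4, 3 for Tmod1. Counting error is at most 9.21% of a count (Hemgn, 118 counts) and 0.874% or less for Dcaf12, against coefficients of variation of 20.5% to 28.5% within normal and 31.4% to 43.7% within colorectal cancer libraries.

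**Figure D2:**
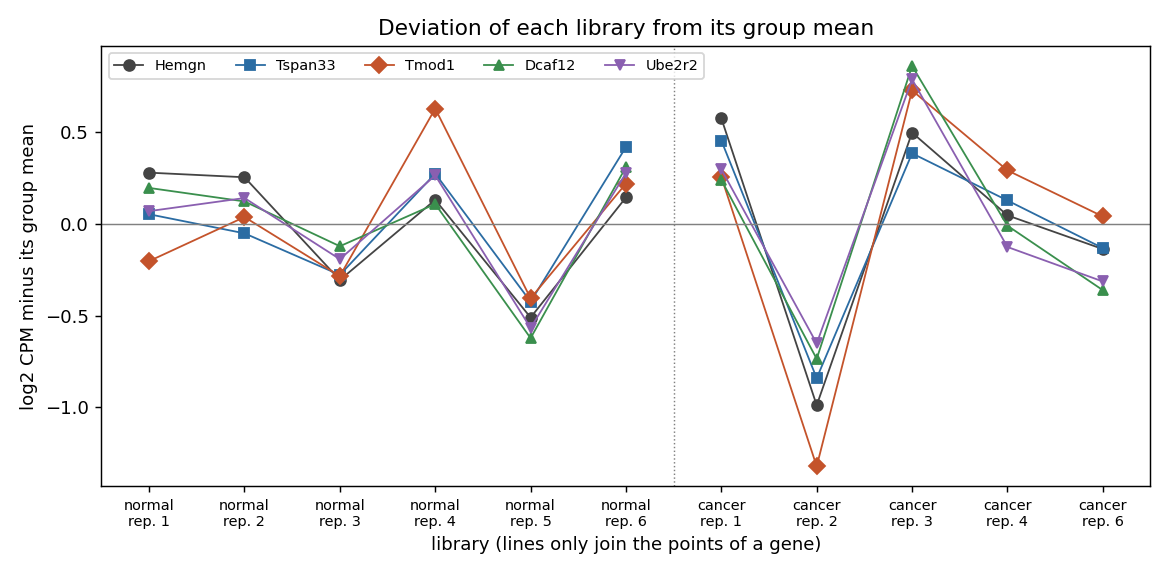
Log2 CPM of each gene minus its group mean, by library, normal replicates left and colorectal cancer replicates right of the dotted line; each marker and colour is a gene. Normal replicate 5 and colorectal cancer replicate 2 are lowest for every gene, while the highest library of each group differs between genes.

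The correlation was measured on log2 CPM after removing each group's mean, over all 11 libraries, for 10 pairs of genes. Pearson's r lay between 0.80 (Tmod1 and Dcaf12) and 0.98 (Dcaf12 and Ube2r2), with a median of 0.885. All 10 pairs passed a two-sided exact permutation test that shuffled libraries within groups over 86400 orders (adjusted p between 0.00116 and 0.0131 over 10 pairs). Spearman's rho lay between 0.64 and 0.95, and 9 of 10 pairs passed the same exact test, Hemgn and Tmod1 having adjusted p = 0.0512. Without the 2 libraries farthest from the median of the first gene, r was between 0.51 (Hemgn and Tmod1) and 0.95 (Dcaf12 and Ube2r2). Over all 45739830 pairs of tested rows the median r was -0.003, and 0.11% of pairs reached the median of the 5 genes. Among the 256 other tested rows of the first 60 Mb of chromosome 4 the median was 0.038 and 0.138% of pairs reached it. The share among pairs of other rows lower in colorectal cancer was not measured. The 5 genes were chosen as lower rows, and their CPM also fell with library depth within groups, as given below. Whether they vary together more than other lower rows was therefore not tested.

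Within the 6 normal libraries alone the median r of the 10 pairs was 0.839, from 0.58 (Hemgn and Tmod1) to 0.95 (Dcaf12 and Ube2r2). By an exact permutation test over 720 orders, 4 of 10 pairs passed by Pearson's r (adjusted p = 0.0451 for each): Hemgn and Dcaf12, Tspan33 and Dcaf12, Tspan33 and Ube2r2, and Dcaf12 and Ube2r2. None passed by Spearman's rho, which ran from 0.43 to 0.94 (adjusted p between 0.0833 and 0.419, exact permutation). The relation of Hemgn to the other genes rested on normal replicates 3 and 5. Without them its r fell to between -0.98 (with Ube2r2) and -0.20 (with Dcaf12), and that of Dcaf12 and Ube2r2 to 0.25. Tspan33 and Ube2r2 kept r = 0.92 without normal replicates 5 and 6. Over all pairs of tested rows 2.2% reached the median of the 5 genes in the normal libraries. The 5 colorectal cancer libraries are too few for a correlation.

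The co-variation was smaller before scaling. On unscaled log2 counts, again as deviations from group means, the median r was 0.551, from 0.23 (Tspan33 and Dcaf12) to 0.83 (Dcaf12 and Ube2r2). Dcaf12 and Ube2r2 alone passed (adjusted p = 0.0372, exact permutation over 11 libraries; rho 0.77, adjusted p = 0.112). Unscaled counts of any 2 rows share the depth of their libraries: the median r over all pairs of tested rows was 0.31, and over rows with a mean of at least 10 CPM it was 0.573, above that of the 5 genes.

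The levels of the 5 genes were also set against library depth. Depth was taken as the log2 total without Olfr648, as a deviation from the group mean. On CPM, a deeper library was a lower library: r with depth was -0.88 for Hemgn, -0.86 for Tspan33, -0.82 for Tmod1, -0.95 for Dcaf12 and -0.96 for Ube2r2 (n = 11). Spearman's rho ran from -0.94 to -0.80. All 5 passed by the exact permutation test within groups (adjusted p between 0.00127 and 0.0122 for r and between 0.00556 and 0.00671 for rho, over 10 relations), and r without colorectal cancer replicates 2 and 3 was between -0.90 and -0.64. The total is part of the divisor of a CPM. The median r with depth over all tested rows was 0.05, and 0.93% of them were below the highest of the 5 genes.

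Before scaling, the counts of the 5 genes had negative r with depth, where most rows had positive r. The r with depth was -0.35 (Hemgn), -0.14 (Tspan33), -0.40 (Tmod1), -0.68 (Dcaf12) and -0.68 (Ube2r2). None passed by Pearson's r (adjusted p between 0.0553 and 0.756, exact permutation, n = 11), and Ube2r2 passed by Spearman's rho (-0.70, adjusted p = 0.0439, exact permutation, n = 11). Without colorectal cancer replicates 2 and 3 these r lay between -0.37 and 0.08. Over all tested rows the median r of unscaled counts with depth was 0.57, with quartiles of 0.32 and 0.77, and 4.11% of rows lay below the highest of the 5 genes. Among the other rows of the first 60 Mb of chromosome 4 the median was 0.69.

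**Figure D3:**
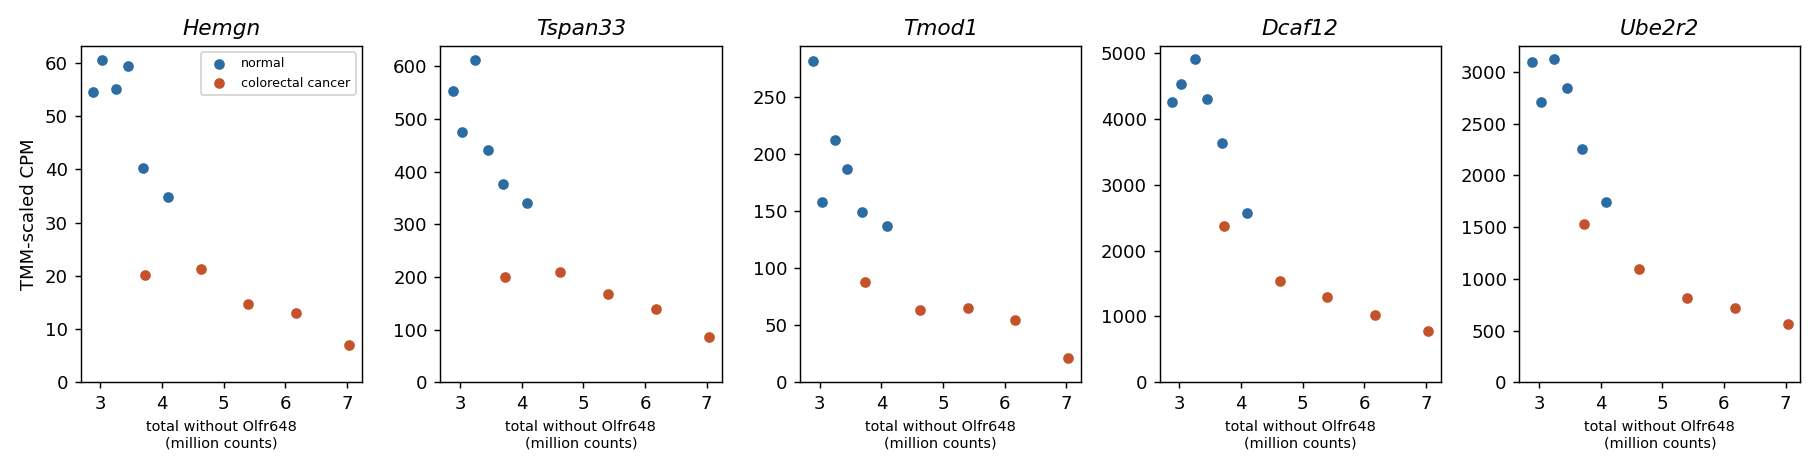
TMM-scaled CPM of each gene (vertical, from 0) against the library total without the row Olfr648 (horizontal), normal libraries in blue and colorectal cancer libraries in orange. In all 5 panels the deepest library of each group has its lowest CPM, and the highest colorectal cancer value is replicate 3 for Tmod1, Dcaf12 and Ube2r2 and replicate 1 for Hemgn and Tspan33.

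Depth and group overlapped in few libraries, so the group difference was also measured beside depth. With depth as a covariate in the edgeR fit, chosen after seeing the data, the log2 fold changes were -0.80 (SE 0.26) for Hemgn, -0.73 (SE 0.22) for Tspan33, -0.65 (SE 0.32) for Tmod1, -0.55 (SE 0.15) for Dcaf12 and -0.55 (SE 0.13) for Ube2r2. These are falls of 1.74-fold, 1.65-fold, 1.57-fold, 1.47-fold and 1.46-fold. In that fit 2 of 9565 rows were lower and 0 higher (351 lower and 334 higher at an unadjusted p under 0.05 by edgeR), and none of the 5 genes was among the calls. The smaller falls were not particular to the 5 genes. All 139 rows called lower without the covariate had a median log2 fold change of -1.18 without it and -0.58 with it, and 2 of them were still called.

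Colorectal cancer replicate 3 had a scaled size of 7964083, and normal replicate 5 one of 8086702. Between these libraries Hemgn was 1.73-fold, Tspan33 1.71-fold and Tmod1 1.56-fold lower in colorectal cancer, and Dcaf12 1.08-fold and Ube2r2 1.13-fold. By total without Olfr648 the closest pair was normal replicate 3 (3690150 counts) and colorectal cancer replicate 3 (3727908 counts). There the ratios were 1.99 for Hemgn, 1.89 for Tspan33, 1.70 for Tmod1, 1.53 for Dcaf12 and 1.47 for Ube2r2. These are single libraries without replicates.

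The 5 genes were also viewed by the high and low Olfr648 counts of the libraries. In normal serum the 2 libraries with high Olfr648 counts had 3630 and 4300 CPM of Dcaf12, inside the range of the other 4 (2564 to 4898 CPM). For Hemgn they had 40.2 and 59.4 CPM, inside 34.9 to 60.5. The single colorectal cancer library without high Olfr648 counts, replicate 3, was the highest of its group for Tmod1, Dcaf12 and Ube2r2 and the second highest for Hemgn and Tspan33. With this division as a covariate the log2 fold changes lay between -1.65 (Hemgn) and -1.33 (Ube2r2).

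Of the 25 distinct tested rows among the 3 nearest on either side of each gene, 0 were lower and 0 higher by edgeR (4 lower and 0 higher at an unadjusted p under 0.05; 3 lower and 0 higher by DESeq2), and their median log2 fold change was -0.08. The unadjusted and DESeq2 counts are 16.0% and 12.0% of these rows, against 5.65% and 2.49% lower over all tested rows. Ubap2, a ubiquitin-associated protein gene between Ube2r2 and Dcaf12, had 140.5 ± 9.75 CPM in normal and 126 ± 8.15 in colorectal cancer libraries (adjusted p = 0.497 by edgeR). Ubap1, on the other side of Dcaf12, had 485 ± 96.9 and 327 ± 57.5 CPM (adjusted p = 0.0757 by edgeR). Nol6, beside Ube2r2, had 117 ± 15.5 and 111 ± 9.96 CPM.

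Around Tmod1 and Hemgn the picture was alike. Tdrd7, upstream of Tmod1, had 107 ± 20.5 and 118 ± 12.9 CPM. Trmo and Anp32b flank Hemgn, the former with 22.2 ± 2.11 and 20.0 ± 4.47 CPM and the latter, a histone chaperone gene, with 410.2 ± 42.0 and 399 ± 54.8 CPM. Beside Tspan33, Tnpo3, which encodes a nuclear import receptor, had 182 ± 18.3 and 195 ± 13.4 CPM, and Smo had 2.94 ± 2.79 and 2.15 ± 0.786. The pseudogene row Gm12403, which lies within Ube2r2 on the same strand, had 4.06 ± 2.63 and 0.834 ± 0.620 CPM (edgeR adjusted p = 0.172, log2 fold change -2.24, SE 0.70), and its reads cannot be separated from those of Ube2r2. Gm12444, in the interval between Tmod1 and Hemgn, had 2.79 ± 1.26 and 0.614 ± 0.637 CPM (adjusted p = 0.213 by edgeR).

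**Figure D4:**
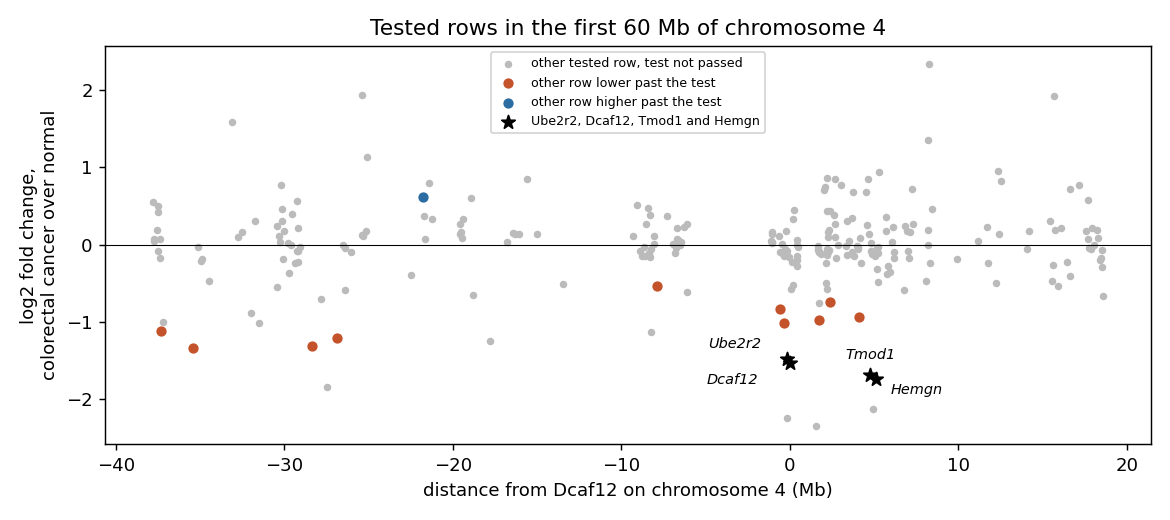
Log2 fold change, colorectal cancer over normal, of 260 tested rows in the first 60 Mb of chromosome 4 against distance from Dcaf12 in Mb; stars are the 4 genes, orange and blue points other rows past the test. Most rows around the stars lie near 0, while the 4 genes lie between -1.74 and -1.48.

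Over the whole stretch, 10 of the 256 other tested rows were lower (3.91%) and 1 higher (0.391%), against 1.45% and 0.565% over all tested rows. Their median log2 fold change was -0.003, against 0.04. In the first 60 Mb of chromosome 6, where Tspan33 lies, 9 of 206 other tested rows were lower (4.37%) and 1 higher (0.485%). Of the chromosome 4 rows, Slc25a51 and Bag1 were the lower rows with the highest median r with the 5 genes (0.89 and 0.81). Slc25a51 encodes a mitochondrial NAD transporter, and Bag1 a co-chaperone of Hsp70. Slc25a51 had 835 ± 178 and 436 ± 148 CPM, and Bag1 674 ± 118 and 335 ± 71.0 CPM. Dnaja1, an Hsp40 co-chaperone lower past the same test, had a median r of 0.37 with the 5 genes. These 3 rows were named after their values were seen.

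Genes of the same pathways were taken from 9 lists of 141 other genes. Of the 139 with a row, 47 were at 0 in every library and 61 were tested. Among these 1 was lower and 0 higher by edgeR, adjusted over all tested rows (3 lower and 1 higher at an unadjusted p under 0.05; 2 lower and 0 higher by DESeq2). That is 1.64% lower, near the 1.45% of all tested rows, and the median log2 fold change was 0.06 against 0.04. At an unadjusted p under 0.05 the lower rows were 4.92% of the 61 and by DESeq2 3.28%, against 5.65% and 2.49% over all tested rows. None of the 61 had a median r of 0.8 or more with the 5 genes. The globin row Hba-a1 was just under that bound, with a median r of 0.79 over 11 libraries, and its levels in normal and colorectal cancer libraries were 4.87 ± 1.59 and 4.78 ± 1.27 CPM (adjusted p = 0.992 by edgeR). Add2, at 0.67, and Tmod4, at 0.65, had lower median r. These 3 rows were named after their values were seen.

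Partners of Hemgn among the erythroid transcription regulators were low. None of 9 tested rows passed (0 at an unadjusted p under 0.05, 0 by DESeq2), and the most abundant were Ldb1, a scaffold of the GATA1 complex, with 44.9 ± 3.69 CPM in normal and 38.1 ± 5.47 in colorectal cancer libraries, and Runx1 with 10.7 ± 5.56 and 10.99 ± 1.51. Gata1 itself had 0 to 13 counts in normal and 0 to 25 in colorectal cancer libraries. None of 2 tested globin rows passed by edgeR (0 at an unadjusted p under 0.05, 0 by DESeq2), Hba-x standing at 8.47 ± 1.57 and 10.2 ± 1.36 CPM. None of 7 heme and iron rows passed by edgeR (1 lower at an unadjusted p under 0.05, 0 by DESeq2). Blvrb, a biliverdin reductase and the most abundant of them, had 54.7 ± 10.8 and 55.2 ± 5.09 CPM. None of 4 red cell enzyme rows passed by edgeR (0 at an unadjusted p under 0.05, 0 by DESeq2), the most abundant, Pklr and Aldoa, having 6.28 ± 6.88 and 7.75 ± 3.26 CPM in normal and 12.2 ± 7.40 and 5.71 ± 1.14 in colorectal cancer libraries.

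Partners of Tmod1 were taken from lists of the red cell skeleton and of actin filament ends. Of 10 tested rows of tropomodulins and actin filament ends, 1 fell: Tmod4, the tropomodulin of skeletal muscle, from 70.7 ± 11.8 to 33.9 ± 8.34 CPM (edgeR adjusted p = 0.00666, log2 fold change -1.06, SE 0.17), with 5 of 5 colorectal cancer libraries below every normal one. It lies on chromosome 3. It lost its call in 2 of 21 alternatives, with the replicate block and with depth as a covariate. Its adjusted p ranged from 2.4e-07 to 0.479 over these alternatives, which include edgeR fits and a DESeq2 fit. Which fit gave the lowest value is not given here. None of 9 tested rows of the red cell membrane and skeleton passed by edgeR (1 lower at an unadjusted p under 0.05; Add2 lower by DESeq2). Add2, beta-adducin, which helps join spectrin to actin, had 12.7 ± 5.35 and 3.55 ± 2.16 CPM (adjusted p = 0.0507 by edgeR). Add3 had 111 ± 17.0 and 126 ± 18.1 CPM, and Tpm3, a tropomyosin, 35.2 ± 6.67 and 29.8 ± 10.9.

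Partners of Dcaf12 and Ube2r2 did not pass the test. Of 12 tested cullin-RING ligase rows none passed by edgeR (0 at an unadjusted p under 0.05, 0 by DESeq2). Ddb1, the adaptor through which Dcaf12 joins its ligase, had 63.2 ± 5.80 and 71.5 ± 4.19 CPM, and Cul4a, the ligase scaffold, 152 ± 44.0 and 141 ± 18.6. Of 8 tested rows of reticulocyte maturation none passed by edgeR (1 higher at an unadjusted p under 0.05, 0 by DESeq2). Ube2h, another ubiquitin-conjugating enzyme of red cells, had 646 ± 73.5 and 769 ± 81.1 CPM (adjusted p = 0.328 by edgeR), and Rundc3a 78.8 ± 8.46 and 88.0 ± 8.68. For Tspan33, both tested rows of the ADAM10 list missed the test (0 at an unadjusted p under 0.05, 0 by DESeq2): Adam17 had 24.8 ± 2.23 and 28.1 ± 8.02 CPM and Tspan5 1.02 ± 0.973 and 1.23 ± 0.728, while Tspan10, Tspan14, Tspan15 and Tspan17 were at 0.

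Markers of 5 other blood cell types were summed in each library. The summed level of 14 platelet markers was 3776 to 6006 CPM in normal and 2101 to 3095 in colorectal cancer libraries, with 8 of 14 at 0, among them the defining Pf4 and Ppbp. Of 4 tested, 1 fell: Itga2b, the alpha chain of the platelet fibrinogen receptor, from 869 ± 177 to 377 ± 147 CPM (adjusted p = 0.0375 by edgeR, in 5 of 5 colorectal cancer libraries below every normal one), with a median r of 0.88 with the 5 genes. At an unadjusted p under 0.05, 3 of the 4 were lower and 0 higher, and 3 were lower by DESeq2 (Itga2b, Gp6 and Gng11). Gng11, the most abundant of them and singled out after its values were seen, had 3366 ± 698 and 2171 ± 531 CPM (adjusted p = 0.0983 by edgeR), lay below every normal library in 5 of 5 colorectal cancer libraries and had a median r of -0.13 with the 5 genes. The 9 T cell markers summed to 812 to 1016 and 482 to 696 CPM, each with counts in some library, and 1 of 6 tested fell, Cd3e (375 ± 71.0 to 194 ± 47.0 CPM, adjusted p = 0.0108 by edgeR, in 5 of 5 colorectal cancer libraries below every normal one). Cd3e had a median r of 0.78 with the 5 genes. At an unadjusted p under 0.05, 3 of these 6 were lower (Cd3e, Cd4 and Il7r), and 1 by DESeq2 (Cd3e). The 12 neutrophil markers summed to 99.0 to 376 and 406 to 711 CPM, with 8 at 0, S100a8 and S100a9 among them. None of 2 tested passed by edgeR (1 higher at an unadjusted p under 0.05, Mmp8, and 1 higher by DESeq2). Over all tested rows 5.65% were lower and 5.73% higher at an unadjusted p under 0.05, and 2.49% and 1.69% by DESeq2.

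The 7 monocyte markers summed to 16.5 to 25.5 and 26.6 to 36.5 CPM, with 3 at 0 (Csf1r, Ccr2 and Adgre1), and 1 of 2 tested rose, Adgre4 (13.6 ± 0.962 to 20.7 ± 3.30 CPM, adjusted p = 0.0385 by edgeR, in 5 of 5 colorectal cancer libraries above every normal one). The 8 B cell markers summed to 957 to 1469 and 1079 to 1191 CPM, with 2 at 0, Ms4a1 among them, and none of 5 tested passed by edgeR (0 at an unadjusted p under 0.05, 0 by DESeq2). The part of these cell types in the values of the 5 genes was not tested.

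The rows most like the 5 genes were found by the median r of their within-group deviations with those of the 5, over 11 libraries, among 2936 named rows with a mean of at least 10 CPM. The 10 highest were Rpl37rt, Unc119b, Ccdc71, Chat, Acads, Rnf144a, Nthl1, Cyth2, Prcd and Mmgt2, with median r from 0.91 to 0.94. None of the 10 lies in the first 60 Mb of chromosome 4, and Rpl37rt, Acads and Unc119b lie together on chromosome 5 between 115102923 and 115134975. All 10 were lower past the test. They were chosen on deviations from group means, but on log2 CPM their r with depth ran from -0.96 to -0.90. Depth also differed between groups, so these calls are no separate evidence on the 5 genes. Mmgt2 was the most abundant, at 39748 ± 8499 CPM in normal and 13229 ± 3834 in colorectal cancer libraries, and Cyth2, an exchange factor for ARF GTPases, had 7203 ± 1350 and 2873 ± 746. Acads, an enzyme of fatty acid oxidation, had 3044 ± 567 and 1056 ± 425 CPM (log2 fold change -1.53, SE 0.25). Of 77 tested rows with a median r of at least 0.8, 48 (62.3%) were lower and 0 higher past the test, against 1.45% and 0.565% of all tested rows and 3.59% and 1.18% of the 3569 with a mean of at least 10 CPM (69 of the 77 are among these), and 4 of the 77 lay in the first 60 Mb of chromosome 4. On log2 CPM the r of the 77 rows with depth ran from -0.99 to -0.64, with a median of -0.89, and on unscaled counts from -0.89 to 0.97, with a median of -0.32. All rows share the library scaling, and no p is given for likeness.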

How the data were processed

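Per the labels' protocols, TRIzol was used on serum and the library kit keeps strand. Each deposited table gives counts by gene symbol, whole numbers with totals that differ between libraries, and they were taken as not normalized by the authors. Trim Galore, HISAT2, StringTie and build mm10 are named, without versions or roles, per the submitters' processing notes. Not given in the sources used here: annotation, counting step, strand setting.

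Files have 53546 rows, of which 0 name no gene. Depth was 2889205 to 20774889 counts per library, so a row at a few counts is known only to within its counting error. Rows passing filterByExpr (9565) were scaled with TMM and tested with edgeR 4.0.16 (quasi-likelihood, robust, group as the only term, R 4.3.3), with Benjamini-Hochberg adjustment at 0.05. DESeq2 1.42.0 was an alternative. Correlations used log2 CPM with a prior count of 2 and exact permutation tests (Python 3.11.15, NumPy 2.4.6, pandas 2.3.3). Positions come from GENCODE M21 (49972 symbols had a single position), start regions from RefSeq for GRCm38.p6. The fit and the permutation test were tested on simulated data.

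The members and lists were chosen with earlier results of these data known. Named genes are the 5 members, up to 3 called rows per direction of each list or else its 2 most abundant tested rows, nearest tested neighbours, and the 10 most alike rows. A few rows that this rule or the lists hold are not reported here. Alternatives covered scaling, filter, tool, prior count, replicate block, the repeated file, the Olfr648 division and each library left out. Scaling to other chromosome 4 rows, unscaled counts and the depth covariate were added after seeing the data.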

Additional observations from a re-analysis of the deposited data

How the results depend on the processing

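The 5 log2 fold changes kept their sign in all 21 alternatives, which refit the same libraries in which the genes were chosen for their fall. With depth as a covariate they moved most, to -0.795 (Hemgn), -0.725 (Tspan33), -0.654 (Tmod1), -0.555 (Dcaf12) and -0.551 (Ube2r2). With 1 library left out they ranged from -1.89 to -1.54, -1.66 to -1.37, -1.88 to -1.45, -1.79 to -1.36 and -1.72 to -1.32 in the same order. Of the pathway rows, 1 was lower; it was 2 with DESeq2, with Olfr648 out and totals alone, with the repeated file kept, and with scaling to other chromosome 4 rows, 0 with depth as a covariate, and 1 to 2 with 1 library left out (2 without colorectal cancer replicate 3 or normal replicate 6). Higher pathway rows were 0, but 9 with Olfr648 out and totals alone and 1 with scaling to other chromosome 4 rows. The median r of 10 pairs fell to 0.551 on unscaled counts, where 1 pair passed in place of 10; without 1 library it was 0.817 (without colorectal cancer replicate 2, where 9 pairs passed) to 0.917. In normal libraries it was 0.749 with chromosome 4 scaling and 0.507 on unscaled counts. The cause of these shifts was not tested.

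Replicate numbers are shared between groups, but same-numbered samples did not deviate together (r between -0.07 and 0.03 over all rows; 1 of 5 normal libraries correlated best with its own number). With the replicate block 0 pathway rows were lower, and the log2 fold changes were -1.90 (Hemgn), -1.67 (Tspan33), -1.86 (Tmod1), -1.73 (Dcaf12) and -1.66 (Ube2r2). Counting depth limits Hemgn most, with 118 to 372 counts, and the red cell markers with fewer than 10 counts allow no comparison.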
